A study of Xenopus laevis with 8 samples.

Results

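Animal caps of Xenopus laevis, pieces of prospective ectoderm cut from around the animal pole before gastrulation, were compared between embryos injected with chordin message and uninjected embryos. The samples were the 2 arrays labelled as chordin-injected and the 2 labelled as uninjected, 4 of the 8 arrays of the series, and all 32539 probe sets other than manufacturer controls were considered. The series text mentions both RNA extraction at stage 9 and culture to stage 15, and the later stage is used here. The message went into the animal pole of 2-cell embryos, explants were taken at stage 9 and collected at stage 15, and the embryos were kept at 13 °C, per the labels. The uninjected caps received no message at all, so an injection of an inert message is no part of the comparison. The other 4 arrays, with chordin and wnt3a messages and with both plus an lrig3 morpholino, entered the fit for its estimate of spread, and they also bore on the filter for low signal and on which genes count as brightest, both taken over all 8 arrays.

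Bone morphogenetic proteins (BMPs) are secreted ligands that direct ectoderm to form epidermis, and chordin binds them outside the cell and keeps them from their receptors. Isolated caps left alone form a mucociliary epidermis with goblet cells, multiciliated cells, ionocytes and small secretory cells, whereas caps shielded from BMP signals take on anterior neural and cement gland character. The comparison therefore asks what blocking BMP alone does to cultured ectoderm. The neural, eye and cement gland markers that define this response are well known, and the account below covers the rest of the array.

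The injected message was measured first. The probe set of chrd.1.S gave signals of 1.66 and 1.34 in uninjected caps and 468 and 771 with chordin (at least 19.8-fold higher, adjusted p = 0.000593). Both chordin arrays lay far above both uninjected arrays, which were at background, so the labels matched the measured message. A probe set cannot separate injected from endogenous chordin message. Where both arrays of the lower group were at or below background, here and below, the fold is a lower bound. For it the signals of that group were raised to the background of their arrays. These folds and all other changes are on the log2(signal + 5.22) scale. The other changes are given ± the standard error of the limma fit with n = 2 arrays a group.

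Signals are linear intensities on arrays scaled to a common trimmed mean. On these 4 arrays background lay between 20.8 and 28.7, and 68.9% to 73.3% of the probe sets exceeded it. The chordin arrays correlated at 0.959 with each other and the uninjected arrays at 0.967, against 0.790 to 0.844 between the groups, over the probe sets kept. The chordin arrays stood apart in some lists: the median member of the axonemal list was 1.02 lower on the log2 scale on chordin replicate 1 than on replicate 2, against 0.02 lower over all named genes. Of the markers of other tissues, 0 of 14 muscle and mesoderm genes rose (2 at an unadjusted limma p below 0.05) and 1 fell, 0 of 8 notochord genes were called (0 at an unadjusted p below 0.05), 1 of 10 endoderm genes rose and 1 fell, and 2 of 11 blood genes fell. The summed signal lay at 905 and 684 in uninjected and 499 and 673 in chordin caps for muscle. Most of the uninjected muscle sum was tnni2.S, the gene that fell, with 677 and 498 in uninjected caps and 69.9 and 89.8 with chordin. For notochord the sum lay at 75.1 and 90.0 against 283 and 322, where not.S gave 12.1 and 26.4 in uninjected caps and 103 and 159.8 with chordin. Its other copy not.L gave 14.96 and 11.3 in uninjected caps and 82.3 and 78.9 with chordin. Neither copy passed (adjusted p = 0.352 for not.S and 0.178 for not.L). Their standard errors, 1.89 and 1.12, also take in arrays outside the comparison. The sum was 1403 and 1987 against 5635 and 6419 for endoderm, where a2m.S alone gave 1037 and 1596 in uninjected caps and 5551 and 6304 with chordin, and 2559 and 2874 against 1119 and 1070.3 for blood. Most of the blood sum was spib.S, which fell, with 2335 and 2571 in uninjected caps and 971 and 856 with chordin. The blood gene lmo2.S went the other way without passing, with 18.9 and 10.2 in uninjected caps and 64.6 and 113 with chordin (adjusted p = 0.274). Of the defining genes, myog.L, sox17a.S, shh.L and gata1.S lay at or below background on all 4 arrays. Others did not: myod1.S gave 46.1 and 22.97 in uninjected caps and 174 and 229 with chordin without passing (adjusted p = 0.131, but 0.0465 under spike-in scaling), sox17a.L was above background on chordin replicate 2 alone, and gata1.L on uninjected replicate 2 alone. The part of these tissues in the results was not tested. Cement gland genes rose in 5 of 7 cases, with sums of 24167 and 15371 in uninjected and 76076 and 89613 in chordin caps. In whole caps, fewer cells of a type and less RNA per cell cannot be told apart.

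Over the whole array, the response was broad. Of 22000 probe sets that passed the filter on low signal, 6445 were called at an adjusted p below 0.05, which is 29.3%: 3866 were higher with chordin (17.6%) and 2579 lower (11.7%). Of these, 2446 rose and 2071 fell by more than 2-fold, 449 rose and 426 fell by more than 8-fold, and 70 rose and 4 fell by more than 64-fold on the log2(signal + 5.22) scale. The 2 groups did not overlap in any of the 6445 called probe sets. An absence of overlap, where given below for a called gene, therefore goes with every call and adds no support to it. On a single probe set per named gene, 1688 of 11303 genes rose (14.9%) and 1136 fell (10.1%), with a median log2 change of 0.03. These are 19.2% and 12.9% of the 8814 that passed the filter. The counts of the gene lists below are to be set against the 14.9% and 10.1%. Only genes that passed the filter could be called, and the share that passed differed between lists. A further 2905 called probe sets carry no single gene symbol.

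**Figure D1:**
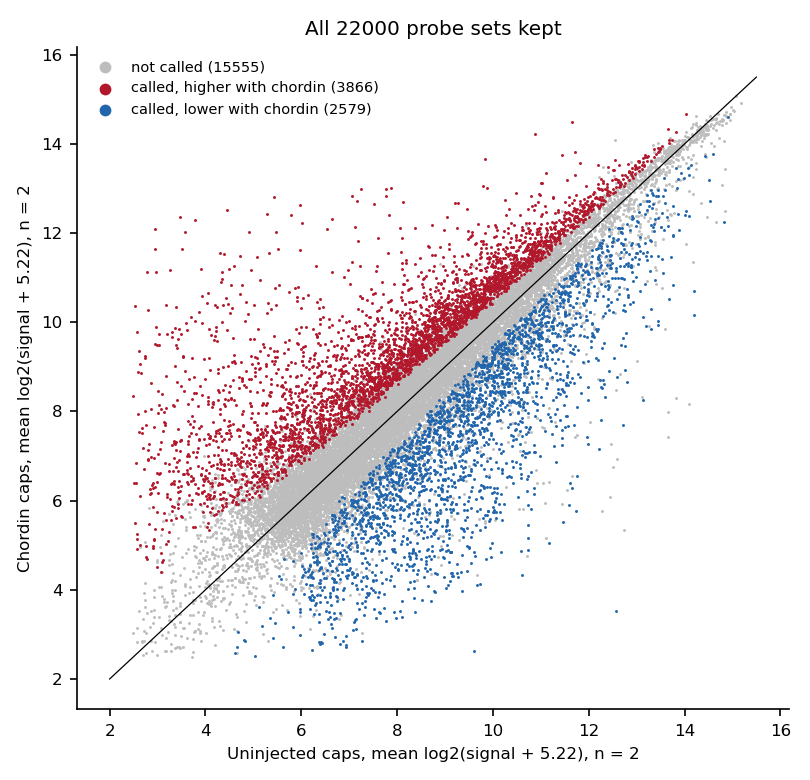
Mean log2(signal + 5.22) of the 2 chordin arrays against that of the 2 uninjected arrays for each of 22000 probe sets, with the 3866 called higher in red, the 2579 called lower in blue and equal values on the line. Red points reach far to the upper left, where uninjected signal is near background, and blue points lie below the line over most of the range.

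The arrays also differed in which messages exceeded background. Both chordin arrays but neither uninjected array exceeded background for 949 probe sets, of which 407 were called, and the reverse held for 495, of which 177 were called. Background, taken per array, was 28.7 and 22.5 on the uninjected arrays and 20.8 and 22.5 on the chordin arrays. These counts therefore rest on unequal thresholds. Another 20388 were above background on all 4 arrays, and 5443 of these were called. In the brightest of 4 equal classes of probe sets 25.1% rose and 11.1% fell, and in the dimmest 10.6% rose and 11.7% fell, while the median standard error went from 0.18 in the brightest to 0.42 in the dimmest.

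The balance between rises and falls depended on the scale. When the arrays were scaled on the poly-A spike-in probe sets in place of the deposited scaling, 5772 probe sets were called higher and 725 lower, and the median log2 change of named genes moved from 0.03 to 0.64. The mean log2 signal of the spike-ins was 9.97 and 9.08 on the uninjected arrays and 8.92 and 8.74 on the chordin arrays, so the uninjected arrays also differed between themselves. The changes below are relative to the deposited scaling. Without uninjected replicate 1, uninjected replicate 2, chordin replicate 1 and chordin replicate 2 the calls numbered 2611, 2956, 2298 and 3545, and 1878 probe sets (1373 higher, 505 lower) were called in all 4 of those fits.

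Outside the best known markers, the genes that rose most encode transport, adhesion and signalling proteins together with transcription factors. Aqp3.L, a channel for water and glycerol, gave 7.12 and 13.2 in uninjected caps and 1952 and 2836 with chordin (at least 76.9-fold higher, adjusted p = 0.000183). The endocytic receptor megalin, lrp2.L, gave 28.04 and 40.5 in uninjected caps and 5256 and 5817 with chordin (log2 change 7.15 ± 0.46, adjusted p = 0.000413, 1 of 2 uninjected arrays at background). Ptgds.S, a lipocalin-type prostaglandin D synthase, gave 15.8 and 37.5 in uninjected caps and 2752 and 6343 with chordin (log2 change 7.13 ± 0.71, adjusted p = 0.00149, 1 of 2 uninjected arrays at background). In each of these genes both chordin arrays were bright and both uninjected arrays were near or below background, with no overlap. The heparin-binding growth factor pleiotrophin, ptn.L, gave 51.6 and 47.6 in uninjected caps and 5023 and 5924 with chordin (log2 change 6.64 ± 0.39, adjusted p = 0.000346). It was the only one of these genes above background on both uninjected arrays.

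Transcription factors in this set included the photoreceptor homeobox gene crx.L, with 2.49 and 30.9 in uninjected caps and 1051 and 2458 with chordin (log2 change 6.59 ± 1.29, adjusted p = 0.0122, 1 of 2 uninjected arrays at background). The zinc-finger gene zic5.S gave 125 and 3.50 in uninjected caps and 3443 and 2301 with chordin (log2 change 6.39 ± 1.09, adjusted p = 0.00793, 1 of 2 uninjected arrays at background), and its 2 uninjected arrays differed far more than its 2 chordin arrays. The hairy and enhancer of split relative hes7.1.L gave 14.8 and 0.651 in uninjected caps and 1466 and 581 with chordin (at least 30.3-fold higher, adjusted p = 0.00164). The groups did not overlap in any of these genes. Among adhesion molecules, the cadherin cdh20.L gave 0.647 and 6.06 in uninjected caps and 702 and 729.6 with chordin (at least 23.5-fold higher, adjusted p = 0.00599). The immunoglobulin-family protein kirrel2.L gave 25.4 and 18.6 in uninjected caps and 2032 and 1614 with chordin (at least 59.2-fold higher, adjusted p = 0.00261). Both were at or below background in uninjected caps and bright with chordin. Cpn1.S, the catalytic subunit of carboxypeptidase N, gave 1.36 and 0.624 in uninjected caps and 503 and 560.2 with chordin (at least 17.5-fold higher, adjusted p = 0.000534). The anterior ectoderm gene xa-1.L gave 2.89 and 18.3 in uninjected caps and 544 and 1990.3 with chordin (at least 34.2-fold higher, adjusted p = 0.0139), and chordin replicate 2 was the higher of its chordin arrays. Aqp3.L, lrp2.L, ptgds.S, ptn.L, cdh20.L, cpn1.S, hes7.1.L and kirrel2.L passed with any 1 array left out. Zic5.S did not pass without chordin replicate 1 (adjusted p up to 0.0593). Crx.L and xa-1.L did not pass without uninjected replicate 1, chordin replicate 1 or chordin replicate 2 (adjusted p up to 0.0823). Under spike-in scaling xa-1.L did not pass (adjusted p up to 0.0502).

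The genes that fell most included several of the surface epithelium and of cilia. The keratin krt18.3.L gave 2487 and 2123 in uninjected caps and 5.44 and 98.7 with chordin (log2 change -6.11 ± 1.23, adjusted p = 0.0132). Cldn1.S, a claudin of tight junctions, gave 986 and 965 in uninjected caps and 1.27 and 138 with chordin (log2 change -5.01 ± 1.23, adjusted p = 0.0252). The matrix metalloprotease mmp3.L gave 2622 and 3655 in uninjected caps and 9.79 and 229.9 with chordin (log2 change -5.71 ± 1.20, adjusted p = 0.0152). In all of these the chordin arrays lay well below the uninjected arrays, and chordin replicate 1 was at background while replicate 2 was not. Genes of motile cilia and their microtubules were prominent: saxo2.L, a microtubule-associated protein of axonemes, gave 3173 and 3687 in uninjected caps and 6.65 and 245 with chordin (log2 change -5.97 ± 1.72, adjusted p = 0.0411). Spef1.S, a microtubule-binding protein first described in sperm flagella, gave 708 and 777 in uninjected caps and 5.95 and 47.8 with chordin (log2 change -4.94 ± 1.18, adjusted p = 0.023). Catip.L, named for a part in ciliogenesis, gave 546 and 489.6 in uninjected caps and 1.12 and 37.4 with chordin (log2 change -4.99 ± 1.11, adjusted p = 0.0183). The same difference between the chordin arrays recurred in these genes.

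Transcription factors among the strongest fallers were cebpa.L, a basic leucine zipper protein, with 696 and 1448 in uninjected caps and 10.003 and 66.5 with chordin (log2 change -4.93 ± 0.92, adjusted p = 0.0104), and the forkhead gene foxi4.2.S. Foxi4.2.S gave 618 and 476 in uninjected caps and 5.32 and 26.3 with chordin (log2 change -4.91 ± 0.80, adjusted p = 0.00664). The groups did not overlap in either gene. The stomatin relative stoml3.L gave 544 and 239 in uninjected caps and 8.26 and 8.53 with chordin (at least 13.6-fold lower, adjusted p = 0.00505), and lexm.L gave 287 and 372 in uninjected caps and 6.09 and 6.25 with chordin (at least 12.4-fold lower, adjusted p = 0.00717). Chordin arrays were at background in both of them. Spata18b.S gave 939 and 759 in uninjected caps and 2.78 and 33.5 with chordin (log2 change -5.59 ± 1.23, adjusted p = 0.0177). XB5949052.L, a locus without a gene name, gave 9306 and 3934 in uninjected caps and 4.08 and 8.96 with chordin (at least 226-fold lower, adjusted p = 0.0138).

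Chordin replicate 1 was lower than chordin replicate 2 in all 12 of these genes, and in 9 of the 12 only replicate 2 was above background. In lexm.L, stoml3.L and XB5949052.L both chordin arrays were at or below background, so the order of the arrays carries no weight there. Foxi4.2.S, lexm.L and stoml3.L passed with any 1 array left out. Mmp3.L and cldn1.S did not pass without uninjected replicate 1 or without uninjected replicate 2 (adjusted p up to 0.104). Cebpa.L did not pass without uninjected replicate 2 or without chordin replicate 1 (adjusted p up to 0.0646). Krt18.3.L, saxo2.L, spata18b.S, catip.L and spef1.S did not pass without uninjected replicate 1, uninjected replicate 2 or chordin replicate 1 (adjusted p up to 0.195). XB5949052.L did not pass in any of the 4 fits with 1 array left out (adjusted p up to 0.0836). Under spike-in scaling XB5949052.L, krt18.3.L, saxo2.L, mmp3.L, spata18b.S, cldn1.S and spef1.S did not pass (adjusted p up to 0.15). The plot of the most changed genes by array shows this spread.

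**Figure D2:**
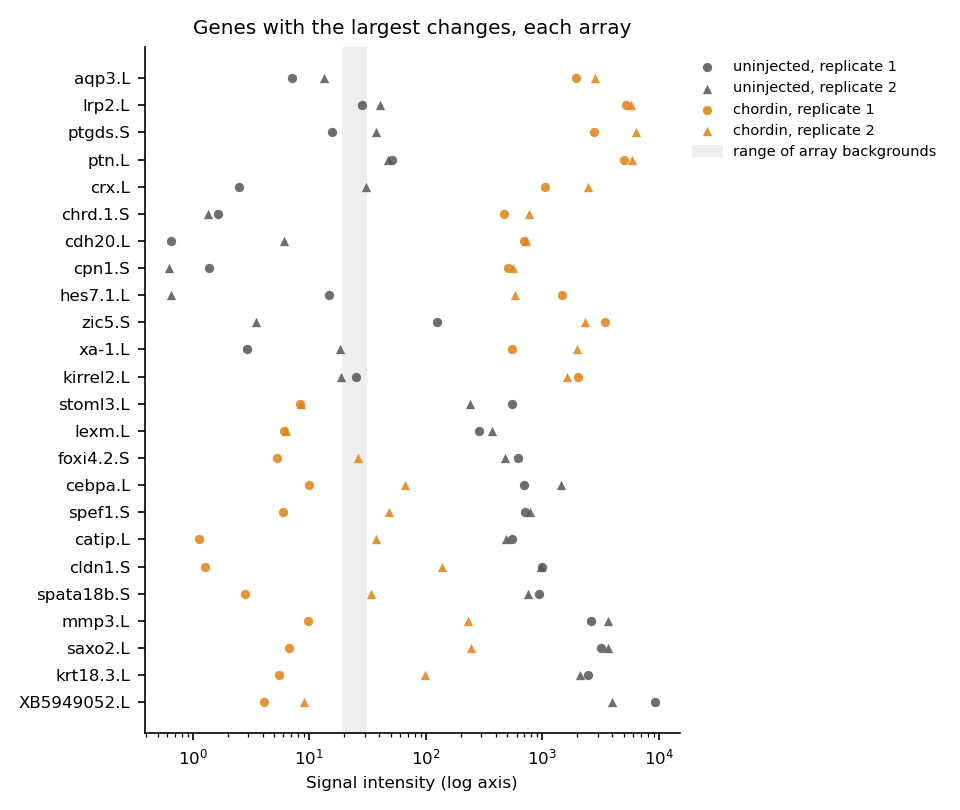
Signal intensity on a log axis of the 11 genes that rose most, the injected chrd.1.S and the 12 genes that fell most, with 1 symbol per array and the range of array backgrounds in grey. The chordin arrays (orange) and uninjected arrays (grey) do not overlap in any gene, which was a condition of the choice. In the lower block the chordin circles, replicate 1, lie to the left of the triangles, replicate 2. For lexm.L, stoml3.L and XB5949052.L both lie at or below background.

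Abundant messages, those in the top 10% by mean signal over all 8 arrays, changed in both directions. The ranking takes in arrays outside the comparison: in caps with chordin and wnt3a, tfap2a.L gave 7618 and 7557 and msx1.L gave 8079 and 7768, above their levels in either group compared. Among intermediate filaments, krt18.1.S gave 873 and 433 in uninjected caps and 6561 and 6601 with chordin (log2 change 3.41 ± 0.40, adjusted p = 0.00259), the opposite direction from krt18.3.L. Vimentin, vim.L, a filament of neural progenitors and mesenchyme, gave 693 and 779.8 in uninjected caps and 4208 and 3525 with chordin (log2 change 2.38 ± 0.20, adjusted p = 0.000879). Both rose with no overlap. Of the 8 abundant genes that rose most, 3 serve DNA synthesis. Ribonucleotide reductase, rrm2.2.L, gave 2837 and 2743 in uninjected caps and 14564 and 13203 with chordin (log2 change 2.31 ± 0.18, adjusted p = 0.000658). The replicative helicase subunit mcm6.2.S gave 1199.8 and 1278 in uninjected caps and 5227 and 5569 with chordin (log2 change 2.12 ± 0.13, adjusted p = 0.000323). The sliding clamp pcna.S gave 2023 and 2065 in uninjected caps and 8515 and 9245 with chordin (log2 change 2.12 ± 0.13, adjusted p = 0.000346). In these genes the 2 replicates of a group were close and the groups did not overlap. The others were zfp36l1.S, which promotes decay of AU-rich messages (log2 change 2.03 ± 0.14, adjusted p = 0.000451), the actin-binding marcksl1.S (log2 change 1.86 ± 0.20, adjusted p = 0.00169) and the proteoglycan glypican 4, gpc4.L (log2 change 1.85 ± 0.21, adjusted p = 0.00187).

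Among abundant fallers the organic cation transporter slc22a4.L gave 20144 and 17588 in uninjected caps and 962 and 2858 with chordin (log2 change -3.50 ± 0.63, adjusted p = 0.00926). The alpha tubulin tuba1cl.3.L gave 32261 and 26216 in uninjected caps and 3816 and 6299 with chordin (log2 change -2.57 ± 0.64, adjusted p = 0.027; adjusted p = 0.0522 with the replicate block). The homeobox gene msx1.L, a BMP target, gave 3312 and 3184 in uninjected caps and 679 and 659.9 with chordin (log2 change -2.27 ± 0.11, adjusted p = 0.000256). Its replicates were nearly equal and its groups well apart. Tfap2a.L, a transcription factor of epidermis and plate border, gave 3889 and 3640.3 in uninjected caps and 388 and 777 with chordin (log2 change -2.76 ± 0.29, adjusted p = 0.00168). The non-muscle myosin light chain myl6.S gave 9646 and 8755 in uninjected caps and 1665 and 2076 with chordin (log2 change -2.30 ± 0.32, adjusted p = 0.00417). The membrane protein basigin, bsg.L, gave 13969.8 and 12868 in uninjected caps and 2761 and 2872 with chordin (log2 change -2.25 ± 0.37, adjusted p = 0.00677). The remaining 2 were has-rs.S (log2 change -2.44 ± 0.31, adjusted p = 0.00317) and post.L (log2 change -2.35 ± 0.36, adjusted p = 0.00567). Krt18.1.S, vim.L, rrm2.2.L, mcm6.2.S, pcna.S, zfp36l1.S, marcksl1.S, gpc4.L, tfap2a.L, has-rs.S, post.L, myl6.S, msx1.L and bsg.L passed with any 1 array left out. Slc22a4.L did not pass without uninjected replicate 1 or without chordin replicate 1 (adjusted p up to 0.0572). Tuba1cl.3.L did not pass in any of the 4 fits with 1 array left out (adjusted p up to 0.148). Under spike-in scaling tuba1cl.3.L did not pass (adjusted p up to 0.108).

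Genes of cilia fell together. Multiciliated cells carry many motile cilia, each an axoneme of microtubules grown from a basal body by intraflagellar transport. Of 53 axonemal genes, dynein arms, tektins, radial spokes and other parts of the beating machinery, 39 fell, or 48 at an unadjusted limma p below 0.05, and 0 rose at either threshold, with a median log2 change of -3.19 against 0.03 over all named genes, and under spike-in scaling the calls were 0 higher and 23 lower. Of 66 genes of intraflagellar transport and basal bodies, 45 fell and 2 rose (median -1.29, or -0.61 with 2 higher and 12 lower under spike-in scaling). Of 10 regulators of the multiciliated fate, 7 fell and 1 rose (median -4.05, or -3.41 with 1 higher and 5 lower under spike-in scaling): the falls were in foxj1, ccno, mcidas and rfx2 copies, and the rise was in e2f4.S. Over all named genes 10.1% fell. These lists, like all those below, were drawn up with earlier results of these arrays known.

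Tektin 1, tekt1.L, a filament protein of axonemal microtubules, gave 1839 and 1839 in uninjected caps and 32.7 and 127 with chordin (log2 change -4.71 ± 0.91, adjusted p = 0.012). Tekt4.S, another tektin, gave 2362 and 2784 in uninjected caps and 61.6 and 201 with chordin (log2 change -4.45 ± 1.05, adjusted p = 0.0222). Cfap126.L, a protein of basal bodies in Xenopus multiciliated cells, gave 364 and 526 in uninjected caps and 5.003 and 37.4 with chordin (log2 change -4.41 ± 0.84, adjusted p = 0.0109, 1 of 2 chordin arrays at background). Both chordin arrays were low in all of these, replicate 1 more so. Cfap161.L gave 1885 and 1480.4 in uninjected caps and 44.7 and 106 with chordin (log2 change -4.49 ± 0.77, adjusted p = 0.00812). Of the basal body list, the centriole protein poc5.L gave 941 and 924 in uninjected caps and 24.8 and 83.02 with chordin (log2 change -4.19 ± 0.72, adjusted p = 0.0078). The centrin cetn4.L gave 4827 and 5516 in uninjected caps and 209.7 and 475 with chordin (log2 change -4.01 ± 0.76, adjusted p = 0.0112). Ccdc78.S, a part of the deuterosomes that make centrioles in bulk, and cep41.S fell as well (log2 change -4.002 ± 0.61, adjusted p = 0.00519, and log2 change -3.82 ± 0.86, adjusted p = 0.019). The largest member to move the other way was cep63.L, which serves centriole duplication in dividing cells, with 141 and 217 in uninjected caps and 639.5 and 858 with chordin (log2 change 2.05 ± 0.34, adjusted p = 0.00662).

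With uninjected 1, uninjected 2, chordin 1 or chordin 2 left out, in that order 18, 18, 12 and 30 axonemal genes, 20, 19, 18 and 31 basal body genes and 1, 5, 3 and 7 regulators fell. Poc5.L, ccdc78.S and cep63.L passed with any 1 array left out. Cfap161.L did not pass without uninjected replicate 1 or without chordin replicate 1 (adjusted p up to 0.059). Tekt1.L, cfap126.L, cetn4.L and cep41.S did not pass without uninjected replicate 1, uninjected replicate 2 or chordin replicate 1 (adjusted p up to 0.103). Tekt4.S did not pass in any of the 4 fits with 1 array left out (adjusted p up to 0.132). Under spike-in scaling tekt4.S and cep41.S did not pass (adjusted p up to 0.0983). The median axonemal change was -3.61 in the replicate 1 arrays and -2.88 in the replicate 2 arrays.

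**Figure D3:**
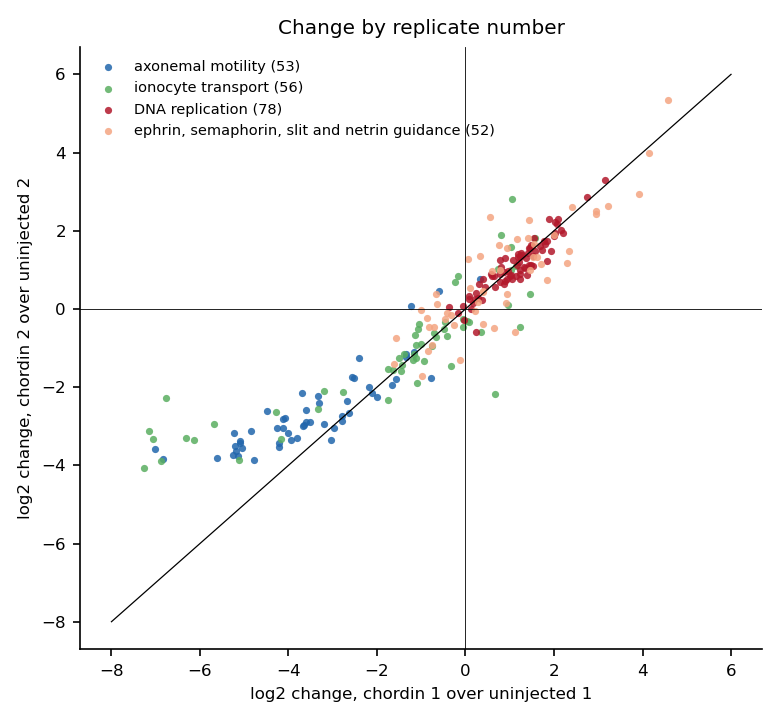
Log2 change of each gene between the arrays of replicate number 1 (horizontal) and of replicate number 2 (vertical) for 4 gene lists, with equal values on the line. DNA replication genes lie along the line, and most axonemal and the lowest ionocyte genes lie above it.

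Lists of other epidermal cell types followed. Ionocytes pump protons and exchange anions. Of 56 transport genes used by such cells 16 fell and 2 rose (median -0.93, or -0.45 with 4 higher and 2 lower under spike-in scaling). Carbonic anhydrase 12, ca12.L, gave 3560.1 and 2903 in uninjected caps and 25.1 and 192 with chordin (log2 change -5.38 ± 1.61, adjusted p = 0.0466; adjusted p = 0.0673 with the replicate block). The proton pump subunit atp6v1al.L gave 3803 and 6378 in uninjected caps and 207 and 633 with chordin (log2 change -3.74 ± 1.03, adjusted p = 0.0366). Chordin replicate 1 was the lowest array in both. Atp6v0a1.L, a membrane subunit of the same pump, gave 1297 and 1236 in uninjected caps and 136 and 282 with chordin (log2 change -2.66 ± 0.67, adjusted p = 0.0279; adjusted p = 0.0504 with the replicate block), and the anion exchanger slc4a1.L also fell (log2 change -2.45 ± 0.47, adjusted p = 0.0109). The sodium pump subunit atp1b3.L rose (log2 change 1.01 ± 0.31, adjusted p = 0.0481).

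The list of mucus and small secretory cell genes moved in both directions: 8 of 30 rose and 3 fell, or 5 with the replicate block (median -0.05, but 0.43 with 8 higher and 1 lower under spike-in scaling). The 8 rises were in ag1 copies, muc2l.L, kcnq1.L and sulfotransferase genes of the chst family, and the 3 falls in foxa1 copies and galnt4.L. Among the risers were ag1.L and ag1.S, secreted proteins of the cement gland, a mucus organ (log2 change 2.86 ± 0.29, adjusted p = 0.00152, and log2 change 3.35 ± 0.59, adjusted p = 0.00857). The counts of this list are therefore no measure of goblet and small secretory cells alone. Muc2l.L, a gel-forming mucin, gave 10.7 and 13.1 in uninjected caps and 158 and 1449.5 with chordin (at least 15.9-fold higher, adjusted p = 0.012). The potassium channel kcnq1.L gave 334 and 481 in uninjected caps and 3859.8 and 2776 with chordin (log2 change 3.01 ± 0.22, adjusted p = 0.000548), and the sulfotransferase chst7.L rose less (log2 change 2.04 ± 0.31, adjusted p = 0.00527). The chordin arrays differed widely for muc2l.L and little for kcnq1.L. Foxa1.L, which specifies small secretory cells in Xenopus, gave 714 and 390.1 in uninjected caps and 20.2 and 29.7 with chordin (log2 change -4.16 ± 1.03, adjusted p = 0.0256, 1 of 2 chordin arrays at background). The goblet cell lectin itln1.L gave 33089.6 and 26296 in uninjected caps and 10225 and 11980.4 with chordin, which did not pass (adjusted p = 0.456). Otogl2.L, also in this list, gave 26887 and 24471 in uninjected caps and 3067 and 7618 with chordin and did not pass either (adjusted p = 0.189). In both genes each chordin array lay below each uninjected array, which held for 3453 of the 11303 named genes. Their standard errors, 1.32 for itln1.L and 1.25 for otogl2.L, also take in arrays outside the comparison. In caps with chordin and wnt3a, itln1.L gave 16683 and 601 and otogl2.L gave 11193 and 694. In fits without uninjected 1, uninjected 2, chordin 1 and chordin 2, in that order 5, 3, 3 and 9 ionocyte genes fell and 6, 4, 5 and 6 mucus genes rose. Kcnq1.L, chst7.L and ag1.L passed with any 1 array left out. Muc2l.L did not pass without uninjected replicate 1 or without uninjected replicate 2 (adjusted p up to 0.0652). Slc4a1.L did not pass without uninjected replicate 2 or without chordin replicate 1 (adjusted p up to 0.0646). Ag1.S did not pass without uninjected replicate 2, chordin replicate 1 or chordin replicate 2 (adjusted p up to 0.0551). Ca12.L, atp6v1al.L, atp6v0a1.L, atp1b3.L and foxa1.L did not pass in any of the 4 fits with 1 array left out (adjusted p up to 0.227). Under spike-in scaling ca12.L and atp6v1al.L did not pass (adjusted p up to 0.172).

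Structural genes of the epidermis fell in part. Among 56 keratin, desmosome and annexin genes, 11 fell and 3 rose (median -0.75, or -0.08 with 6 higher and 3 lower under spike-in scaling), and 19 fell with the replicate block. Annexin 9, anxa9.L, gave 1752 and 2109.8 in uninjected caps and 149 and 531 with chordin (log2 change -2.74 ± 0.75, adjusted p = 0.0349). The desmosomal linker periplakin, ppl.L, gave 6109 and 7324 in uninjected caps and 749 and 2022 with chordin (log2 change -2.44 ± 0.74, adjusted p = 0.0484; adjusted p = 0.0823 with the replicate block). Krt17.L and anxa2.L fell too (at least 3.60-fold lower, adjusted p = 0.0329, and log2 change -2.09 ± 0.51, adjusted p = 0.0249). The groups did not overlap in these 4 genes. The desmosomal cadherin dsc3.S moved the other way, with 15.03 and 19.8 in uninjected caps and 250.0 and 183 with chordin (at least 7.15-fold higher, adjusted p = 0.00142).

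Among 39 epidermal transcription factors, 13 fell and 6 rose (median -0.48, but 0.09 with 10 higher and 8 lower under spike-in scaling). Both copies of tp63, the transcription factor of stratified epithelial progenitors, fell: tp63.S gave 325 and 286 in uninjected caps and 15.8 and 28.4 with chordin (log2 change -3.54 ± 0.44, adjusted p = 0.0026, 1 of 2 chordin arrays at background). Tp63.L gave 162 and 166 in uninjected caps and 0.701 and 33.5 with chordin (log2 change -3.48 ± 0.80, adjusted p = 0.0198, 1 of 2 chordin arrays at background). The uninjected arrays were close to each other in both copies and above the chordin arrays. Gata2.L, a target of BMP signals in ventral ectoderm, gave 13440.3 and 12752 in uninjected caps and 1102 and 1966 with chordin (log2 change -3.15 ± 0.71, adjusted p = 0.0193). The distal-less gene dlx6.L gave 106 and 97.4 in uninjected caps and 770.1 and 660.4 with chordin (log2 change 2.75 ± 0.25, adjusted p = 0.001), the opposite direction.

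Of 27 tight junction genes 4 rose and 6 fell, which is 14.8% and 22.2% against 14.9% and 10.1% of all named genes (median -0.33, but 0.29 with 5 higher and 0 lower under spike-in scaling). Cldn1.S, given above, had the largest fall, and cldn3.L, another claudin, gave 21.4 and 3.996 in uninjected caps and 272 and 1217 with chordin (at least 18.99-fold higher, adjusted p = 0.00731). The scaffold genes tjp3.L (log2 change -1.50 ± 0.44, adjusted p = 0.0416), pard6b.S (log2 change -1.15 ± 0.31, adjusted p = 0.0327) and cingulin, cgn.L (log2 change -1.01 ± 0.22, adjusted p = 0.0156), fell by smaller amounts. When uninjected 1, uninjected 2, chordin 1 or chordin 2 was left out, in that order 2, 1, 1 and 2 rose and 1, 1, 1 and 6 fell among keratin and desmosome genes, 5, 3, 3 and 3 rose and 5, 6, 6 and 10 fell among epidermal factors and 2, 2, 2 and 2 rose and 0, 0, 1 and 1 fell among tight junction genes. Dsc3.S, tp63.S, dlx6.L and cldn3.L passed with any 1 array left out. Tp63.L did not pass without uninjected replicate 1 or without uninjected replicate 2 (adjusted p up to 0.0893). Anxa9.L did not pass without uninjected replicate 1, uninjected replicate 2 or chordin replicate 1 (adjusted p up to 0.171). Krt17.L, ppl.L, anxa2.L, gata2.L, tjp3.L, pard6b.S and cgn.L did not pass in any of the 4 fits with 1 array left out (adjusted p up to 0.236). Under spike-in scaling anxa9.L, ppl.L, gata2.L, tjp3.L, pard6b.S and cgn.L did not pass (adjusted p up to 0.577).

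Genes of DNA replication rose together. Replication origins are licensed by the Mcm helicase and Cdc6, primed by the primase and copied by polymerases held by Pcna. Of 78 such genes 56 rose, or 59 at an unadjusted limma p below 0.05, and 0 fell at either threshold (median 1.16, or 1.85 with 61 higher and 0 lower under spike-in scaling), against 14.9% of all named genes that rose. The helicase subunit mcm4.S gave 297 and 272 in uninjected caps and 2679 and 2717 with chordin (log2 change 3.22 ± 0.16, adjusted p = 0.000263). The single-strand binding subunit rpa2.S gave 112 and 105 in uninjected caps and 783 and 802 with chordin (log2 change 2.81 ± 0.18, adjusted p = 0.000405). Primase prim2.S gave 213 and 232 in uninjected caps and 918 and 1160.0 with chordin (log2 change 2.19 ± 0.21, adjusted p = 0.00127). Replicates of a group were close in each, and the groups did not overlap. The licensing factor cdc6.S gave 646 and 661 in uninjected caps and 2658 and 3131 with chordin (log2 change 2.13 ± 0.22, adjusted p = 0.00151). The median change was 1.23 in the replicate 1 and 1.10 in the replicate 2 arrays.

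Of 125 genes of mitosis and the cyclins, 56 rose and 3 fell (median 0.57, or 1.24 with 72 higher and 0 lower under spike-in scaling). Cyclin D1, ccnd1.S, the cyclin of the G1 phase, gave 3752 and 3431 in uninjected caps and 12749 and 11709 with chordin (log2 change 1.77 ± 0.13, adjusted p = 0.000558). The kinase cdk2.S gave 1304 and 1224 in uninjected caps and 4530.2 and 3666 with chordin (log2 change 1.69 ± 0.15, adjusted p = 0.000943). Cdca7.L, a chromatin partner of Hells, and the kinetochore gene cenpk.L rose as well (log2 change 1.67 ± 0.17, adjusted p = 0.00155, and log2 change 1.64 ± 0.21, adjusted p = 0.00307). Cyclin A1, ccna1.S, fell, with 1113 and 1596 in uninjected caps and 40.2 and 180.3 with chordin (log2 change -3.87 ± 1.13, adjusted p = 0.0428). Its chordin arrays differed by several fold and lay below both uninjected arrays.

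Among chromatin genes 42 of 120 remodellers and modifiers rose and 0 fell, or 3 at an unadjusted limma p below 0.05 and 4 with the replicate block (median 0.44, or 1.13 with 59 higher and 0 lower under spike-in scaling). The helicase hells.L, needed for DNA methylation of repeats, gave 776 and 646 in uninjected caps and 2949.6 and 2829 with chordin (log2 change 2.02 ± 0.17, adjusted p = 0.000825). Chd7.L, a remodeller known for its part in neural crest, gave 1110.3 and 1298 in uninjected caps and 4226 and 4233 with chordin (log2 change 1.81 ± 0.19, adjusted p = 0.00153). Phf20.L and the arginine methyltransferase prmt5.S also rose (log2 change 1.999 ± 0.22, adjusted p = 0.00178, and log2 change 1.79 ± 0.28, adjusted p = 0.00575). Of 43 genes of serine, folate and nucleotide synthesis, 18 rose and 6 fell (median 0.46, or 1.15 with 20 higher and 2 lower under spike-in scaling). Glycine decarboxylase, gldc.S, gave 843 and 861 in uninjected caps and 3688 and 3538 with chordin (log2 change 2.08 ± 0.25, adjusted p = 0.00253). The nucleoside diphosphate kinase nme3.L gave 52.3 and 54.04 in uninjected caps and 605 and 481 with chordin (log2 change 3.22 ± 0.24, adjusted p = 0.000546), while its relative nme9.L fell (log2 change -3.24 ± 0.71, adjusted p = 0.0176). The purine enzyme adss1.S (at least 2.58-fold higher, adjusted p = 0.003) and psat1.L of serine synthesis (at least 2.62-fold higher, adjusted p = 0.0145) rose from background.

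With uninjected 1, uninjected 2, chordin 1 or chordin 2 left out, in that order 41, 46, 38 and 44 replication genes, 30, 24, 20 and 34 mitosis genes, 25, 28, 20 and 26 chromatin genes and 9, 16, 10 and 11 nucleotide synthesis genes rose. Mcm4.S, rpa2.S, prim2.S, cdc6.S, ccnd1.S, cdk2.S, cdca7.L, cenpk.L, hells.L, phf20.L, chd7.L, prmt5.S, adss1.S, nme3.L and gldc.S passed with any 1 array left out. Ccna1.S, psat1.L and nme9.L did not pass in any of the 4 fits with 1 array left out (adjusted p up to 0.213). Under spike-in scaling ccna1.S did not pass (adjusted p up to 0.17).

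Among RNA-binding proteins a few changes were large. Of 124 splicing regulators and related RNA-binding genes 29 rose and 3 fell, or 7 with the replicate block (median 0.19, or 0.88 with 46 higher and 0 lower under spike-in scaling). The neuronal splicing factor nova1.L gave 0.878 and 0.741 in uninjected caps and 255 and 226 with chordin (at least 8.01-fold higher, adjusted p = 0.000996). Its relative nova2.L gave 5.41 and 29.3 in uninjected caps and 539 and 392 with chordin (log2 change 4.60 ± 0.55, adjusted p = 0.00252, 1 of 2 uninjected arrays at background). Celf3.L, a brain-enriched regulator, gave 3.24 and 3.06 in uninjected caps and 315 and 218 with chordin (at least 8.71-fold higher, adjusted p = 0.000346). All of these were at or near background in uninjected caps. Musashi, msi1.L, an RNA-binding protein of neural progenitors, was already measurable in uninjected caps and gave 363 and 206 in uninjected caps and 7218 and 6149 with chordin (log2 change 4.58 ± 0.28, adjusted p = 0.000337). Rbfox2.L fell, with 792 and 1173 in uninjected caps and 239.6 and 296 with chordin (log2 change -1.84 ± 0.23, adjusted p = 0.00268).

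In translation and ribosome assembly 42 of 138 genes rose and 1 fell, or 4 with the replicate block (median 0.26, or 0.94 with 61 higher and 0 lower under spike-in scaling). The largest rises were those of nopchap1.S (log2 change 1.39 ± 0.17, adjusted p = 0.0025), a chaperone of box C/D snoRNP assembly, and the mitochondrial leucine tRNA ligase lars2.L (log2 change 1.39 ± 0.25, adjusted p = 0.00874). The methyltransferase eef2kmt.L (log2 change 1.22 ± 0.20, adjusted p = 0.00628) and utp25.S of the small ribosomal subunit processome (log2 change 1.20 ± 0.25, adjusted p = 0.0146) followed. The elongation factor eef1a1o.L, a form of eEF1A found in Xenopus oocytes, fell, with 13348 and 14390.1 in uninjected caps and 3500.2 and 4461 with chordin (log2 change -1.81 ± 0.45, adjusted p = 0.0256). Ribosomal protein genes moved little: 9 of 88 rose and 0 fell, or 15 and 1 at an unadjusted limma p below 0.05, and 14 and 2 with the replicate block (median 0.13, or 0.83 with 20 higher and 0 lower under spike-in scaling). The largest of these rises was that of rplp2.S, with 4168 and 4444 in uninjected caps and 6132 and 6498 with chordin (log2 change 0.55 ± 0.11, adjusted p = 0.0117), then rps4x.S (log2 change 0.55 ± 0.15, adjusted p = 0.0366), rps7.L (log2 change 0.53 ± 0.16, adjusted p = 0.0482) and rps13.L (log2 change 0.52 ± 0.13, adjusted p = 0.0274).

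In the respiratory chain 6 of 92 genes rose and 4 fell, or 12 and 9 with the replicate block (median 0.04, or 0.74 with 12 higher and 0 lower under spike-in scaling), against 14.9% and 10.1% of all named genes. The copper chaperone cox17.L rose (log2 change 0.90 ± 0.16, adjusted p = 0.00758), and the complex I subunit ndufs6.S fell (log2 change -1.09 ± 0.18, adjusted p = 0.00722). In fits without uninjected 1, uninjected 2, chordin 1 and chordin 2, in that order 12, 10, 11 and 16 splicing regulators, 10, 17, 14 and 13 translation genes, 0, 2, 1 and 0 ribosomal protein genes and 1, 2, 1 and 2 respiratory genes rose. Nova1.L, celf3.L, nova2.L, msi1.L, rbfox2.L, nopchap1.S, eef2kmt.L and cox17.L passed with any 1 array left out. Ndufs6.S did not pass without uninjected replicate 1 or without chordin replicate 1 (adjusted p up to 0.0535). Lars2.L did not pass without uninjected replicate 1 or without chordin replicate 2 (adjusted p up to 0.0556). Utp25.S, rplp2.S and rps7.L did not pass without uninjected replicate 1, chordin replicate 1 or chordin replicate 2 (adjusted p up to 0.222). Eef1a1o.L, rps4x.S and rps13.L did not pass in any of the 4 fits with 1 array left out (adjusted p up to 0.159). Under spike-in scaling rbfox2.L, eef1a1o.L and ndufs6.S did not pass (adjusted p up to 0.491).

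**Figure D4:**
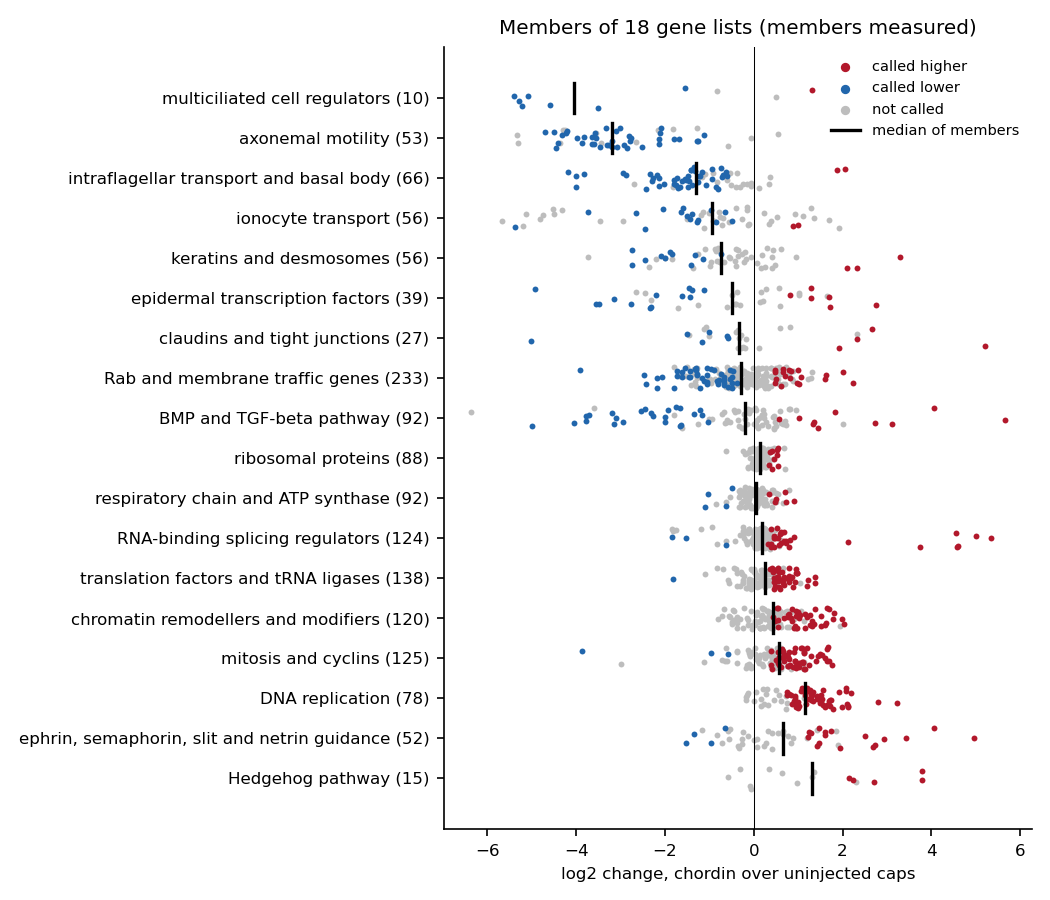
Log2 change with chordin of every measured member of 18 gene lists, 1 point per gene, red or blue where called higher or lower, with a bar at the list's median and the number of members in brackets. Cilia lists lie left of 0, ribosomal and respiratory genes lie close to it, and replication genes lie to the right.

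Some genes of 2 pathways that pattern the neural tube rose. Hedgehog ligands bind Patched, which frees Smoothened to act on the Gli transcription factors. Of 15 genes of the pathway 5 rose, or 7 at an unadjusted limma p below 0.05, and 0 fell at either threshold (median 1.32, or 1.70 with 7 higher and 0 lower under spike-in scaling), all 5 of them on the receiving side. Gli2.S gave 5.58 and 9.50 in uninjected caps and 181 and 158 with chordin (at least 5.69-fold higher, adjusted p = 0.00166), and gli2.L gave 25.997 and 19.8 in uninjected caps and 437 and 333 with chordin (at least 12.6-fold higher, adjusted p = 0.00275). The signal transducer smo.L gave 356 and 544 in uninjected caps and 2889 and 2960.2 with chordin (log2 change 2.72 ± 0.23, adjusted p = 0.000879). The groups did not overlap in any of these. Gli3.L, which acts mainly as a repressor, gave 173 and 177 in uninjected caps and 902 and 798 with chordin (log2 change 2.25 ± 0.24, adjusted p = 0.00155). The co-receptor boc.L, named after its values were seen as the last of these genes, gave 98.2 and 133 in uninjected caps and 467 and 588 with chordin (log2 change 2.14 ± 0.23, adjusted p = 0.00167). The ligand genes shh.L, ihh.S, dhh.L and dhh.S lay at or below background on all 4 arrays, as did the receptor gene ptch1.S. In each fit with 1 array left out all 5 rises were called.

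Of 32 genes taken by the Notch list, whose name pattern also takes both copies of the homeobox gene hesx1, 9 rose and 1 fell, or 2 with the replicate block (median 0.30, or 0.94 with 13 higher and 1 lower under spike-in scaling). Hes1.S, a repressor that Notch switches on, gave 82.3 and 108 in uninjected caps and 4937 and 5328 with chordin (log2 change 5.69 ± 0.18, adjusted p = 9.48e-05). Its other copy hes1.L gave 876 and 1002 in uninjected caps and 7618 and 8832 with chordin (log2 change 3.12 ± 0.30, adjusted p = 0.00126), from a much higher level in uninjected caps. The hesx1 copies, which are an anterior neural marker and no Notch gene, were among the largest (at least 105-fold higher, adjusted p = 0.00107, and log2 change 6.21 ± 0.74, adjusted p = 0.00253). Hey1.S fell (log2 change -0.86 ± 0.24, adjusted p = 0.0343). When uninjected 1, uninjected 2, chordin 1 or chordin 2 was left out, in that order 8, 8, 7 and 8 members rose. Hes1.S, hes1.L, hesx1.S and hesx1.L passed with any 1 array left out. Hey1.S did not pass in any of the 4 fits with 1 array left out (adjusted p up to 0.174). Under spike-in scaling hey1.S did not pass (adjusted p up to 0.782).

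In the guidance, cadherin and matrix lists called rises outnumbered called falls, and among integrins and metalloproteases called falls outnumbered called rises. Rises made up 32.7% of the guidance, 21.9% of the cadherin and 21.3% of the matrix list, against 14.9% of all named genes. Falls made up 7.7%, 9.4% and 3.3% of these lists, against 10.1% of all named genes. The filter passed 41 of 52 guidance, 23 of 32 cadherin and 30 of 61 matrix genes, against 8814 of 11303 named genes. The lower share of cadherin falls is therefore no result about these genes. With the replicate block 6 of the 32 cadherin genes fell, against 1577 of the 11303. Among integrins and metalloproteases the share of falls lay above that of all named genes and the share of rises below it. Of 52 genes of the ephrin, semaphorin, slit and netrin systems 17 rose and 4 fell (median 0.66, or 1.16 with 22 higher and 0 lower under spike-in scaling). Epha4.S, a receptor for ephrins, gave 80.9 and 67.8 in uninjected caps and 2061 and 2948 with chordin (log2 change 4.96 ± 0.26, adjusted p = 0.000318). Its copy epha4.L gave 14.1 and 11.4 in uninjected caps and 335 and 256 with chordin (at least 9.72-fold higher, adjusted p = 0.000375). Flrt3.L, a leucine-rich repeat protein that regulates adhesion in the Xenopus gastrula, gave 26.5 and 60.01 in uninjected caps and 477 and 499.7 with chordin (log2 change 3.44 ± 0.39, adjusted p = 0.0019, 1 of 2 uninjected arrays at background). The groups were well apart in each. Flrt3.S rose as well (at least 6.33-fold higher, adjusted p = 0.00221), and the semaphorin sema4b.S fell (log2 change -1.52 ± 0.42, adjusted p = 0.0344).

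Of 32 cadherins and related adhesion genes 7 rose and 3 fell, or 6 with the replicate block (median 0.06, or 0.59 with 10 higher and 1 lower under spike-in scaling). N-cadherin, cdh2.L, gave 56.9 and 28.6 in uninjected caps and 2907 and 3497 with chordin (log2 change 6.12 ± 0.34, adjusted p = 0.000323). The neural cell adhesion molecule ncam1.S gave 17.4 and 15.8 in uninjected caps and 981 and 838 with chordin (at least 29.7-fold higher, adjusted p = 0.000943). The protocadherin pcdh8.L, or paraxial protocadherin, gave 26.8 and 24.2 in uninjected caps and 751 and 824 with chordin (log2 change 4.69 ± 0.43, adjusted p = 0.00103, 1 of 2 uninjected arrays at background). None of the uninjected arrays came near the chordin arrays in these genes. Another protocadherin, pcdh7.L, known in Xenopus as NF-protocadherin of the deep ectoderm, gave 159 and 161 in uninjected caps and 22.5 and 26.8 with chordin (log2 change -2.47 ± 0.36, adjusted p = 0.00427).

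In the extracellular matrix 13 of 61 genes rose and 2 fell (median 0.21, or 0.73 with 15 higher and 0 lower under spike-in scaling). The proteoglycan versican, vcan.L, gave 16.5 and 20.2 in uninjected caps and 1503 and 1069 with chordin (at least 41.5-fold higher, adjusted p = 0.000451). Fibulin 1, fbln1.L, gave 15.1 and 20.1 in uninjected caps and 951 and 1468 with chordin (at least 38.7-fold higher, adjusted p = 0.00132). Fibrillin 3, fbn3.L, a microfibril protein, gave 23.6 and 23.1 in uninjected caps and 377 and 593 with chordin (log2 change 4.07 ± 0.37, adjusted p = 0.00102, 1 of 2 uninjected arrays at background). Uninjected arrays were near background in all of these. Hyaluronan synthases went opposite ways: has2.S gave 0.701 and 1.96 in uninjected caps and 148 and 130.3 with chordin (at least 4.70-fold higher, adjusted p = 0.0108), while has1.S gave 26547 and 20595 in uninjected caps and 9711 and 9007 with chordin (log2 change -1.32 ± 0.38, adjusted p = 0.0414).

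Of 50 integrins and metalloproteases 9 fell and 4 rose (median -0.18, but 0.43 with 6 higher and 4 lower under spike-in scaling). The fibronectin receptor subunit itga5.L gave 386 and 545 in uninjected caps and 22.7 and 75.03 with chordin (log2 change -3.29 ± 0.50, adjusted p = 0.00533). Itgb3.L and the collagenase mmp1.S also fell (at least 6.21-fold lower, adjusted p = 0.0117, and log2 change -4.55 ± 1.14, adjusted p = 0.0265, 1 of 2 chordin arrays at background), and the membrane-bound mmp14.L rose (at least 4.73-fold higher, adjusted p = 0.0107). With uninjected 1, uninjected 2, chordin 1 or chordin 2 left out, in that order 13, 12, 12 and 13 guidance, 7, 7, 7 and 7 cadherin and 7, 9, 8 and 7 matrix genes rose, and 2, 2, 4 and 1 rose and 2, 3, 4 and 7 fell among integrins and metalloproteases. Epha4.S, epha4.L, flrt3.L, flrt3.S, pcdh8.L, cdh2.L, ncam1.S, pcdh7.L, vcan.L, fbln1.L, fbn3.L and itga5.L passed with any 1 array left out. Mmp14.L did not pass without chordin replicate 2 (adjusted p up to 0.0575). Mmp1.S did not pass without uninjected replicate 1, uninjected replicate 2 or chordin replicate 1 (adjusted p up to 0.136). Sema4b.S, has2.S, has1.S and itgb3.L did not pass in any of the 4 fits with 1 array left out (adjusted p up to 0.178). Under spike-in scaling sema4b.S, has1.S and mmp1.S did not pass (adjusted p up to 0.231).

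The blocked pathway itself was measured over 92 genes of BMP and TGF-beta signalling, of which 24 fell and 10 rose (median -0.20, but 0.36 with 12 higher and 13 lower under spike-in scaling). Falls included feedback regulators that BMP signals switch on. Sizzled, szl.S, an inhibitor of the proteases that cleave chordin, gave 1824 and 1735 in uninjected caps and 14.9 and 149.9 with chordin (log2 change -4.996 ± 1.47, adjusted p = 0.0441, 1 of 2 chordin arrays at background). The pseudoreceptor bambi.L gave 3268 and 2378 in uninjected caps and 69.5 and 379 with chordin (log2 change -4.04 ± 1.11, adjusted p = 0.0361). The BMP-binding proteins bmper.L and twsg1.L fell too: bmper.L gave 386 and 252 in uninjected caps and 15.2 and 21.1 with chordin (at least 11.8-fold lower, adjusted p = 0.00259). Twsg1.L, twisted gastrulation, gave 1424 and 1153 in uninjected caps and 70.9 and 112 with chordin (log2 change -3.77 ± 0.36, adjusted p = 0.00115). The largest rise was that of the BMP antagonist nog2.L, with 16.7 and 13.4 in uninjected caps and 1122 and 929 with chordin (at least 33.5-fold higher, adjusted p = 0.000451).

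Of 81 Wnt pathway genes 22 rose and 9 fell (median 0.19, or 0.79 with 27 higher and 5 lower under spike-in scaling). The secreted Wnt antagonist frzb.L gave 13.03 and 3.43 in uninjected caps and 351 and 502 with chordin (at least 13.9-fold higher, adjusted p = 0.00272). Prickle1.S, of planar polarity, gave 47.9 and 60.97 in uninjected caps and 1070.5 and 776 with chordin (log2 change 3.95 ± 0.55, adjusted p = 0.00415). The Wnt enhancer rspo2.L (at least 5.25-fold higher, adjusted p = 0.0144) and the receptor fzd5.S (at least 6.30-fold higher, adjusted p = 0.00474) rose from background. Another receptor, fzd10.S, gave 753 and 552 in uninjected caps and 27.2 and 48.9 with chordin (log2 change -3.95 ± 0.32, adjusted p = 0.000748). The groups did not overlap in these genes.

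Among FGF, ErbB and MAP kinase genes 20 of 83 rose and 7 fell (median 0.29, or 0.90 with 24 higher and 1 lower under spike-in scaling). The ligand fgf8.L gave 95.1 and 153 in uninjected caps and 2497 and 2113 with chordin (log2 change 4.19 ± 0.61, adjusted p = 0.00471). The feedback inhibitor spry2.S gave 31.95 and 32.3 in uninjected caps and 629 and 764 with chordin (log2 change 4.22 ± 0.64, adjusted p = 0.00532). Both copies of mycn, a growth-promoting transcription factor, rose (log2 change 4.66 ± 0.26, adjusted p = 0.000318, and log2 change 4.08 ± 0.32, adjusted p = 0.000667), and mapk15.L, a kinase with a part in ciliogenesis, fell (at least 4.02-fold lower, adjusted p = 0.00695).

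Of 41 retinoic acid genes 7 rose and 6 fell, which is 17.1% and 14.6% against 14.9% and 10.1% of all named genes (median 0.06, or 0.57 with 10 higher and 3 lower under spike-in scaling). Of the enzymes that degrade retinoic acid, cyp26c1.S gave 1.80 and 6.39 in uninjected caps and 201 and 944 with chordin (at least 14.4-fold higher, adjusted p = 0.00982). Cyp26a1.L gave 3.42 and 2.72 in uninjected caps and 68.2 and 126 with chordin (at least 3.20-fold higher, adjusted p = 0.00203). The binding protein crabp2.L (log2 change 3.82 ± 0.77, adjusted p = 0.0132, 1 of 2 uninjected arrays at background) and the orphan nuclear receptor nr2f2.L (log2 change 2.96 ± 0.41, adjusted p = 0.00376) rose, and the retinaldehyde dehydrogenase aldh1a1.S fell (log2 change -3.05 ± 0.86, adjusted p = 0.0378, 1 of 2 chordin arrays at background). In fits without uninjected 1, uninjected 2, chordin 1 and chordin 2, in that order 14, 15, 14 and 20 BMP genes fell, and 12, 12, 10 and 15 Wnt, 17, 16, 16 and 16 FGF and 4, 5, 4 and 4 retinoic acid genes rose. Bmper.L, twsg1.L, nog2.L, frzb.L, prickle1.S, fzd5.S, fzd10.S, mycn.S, spry2.S, fgf8.L, mycn.L, cyp26a1.L and nr2f2.L passed with any 1 array left out. Mapk15.L did not pass without uninjected replicate 1 (adjusted p up to 0.0522). Rspo2.L and crabp2.L did not pass without uninjected replicate 1 or without chordin replicate 1 (adjusted p up to 0.091). Cyp26c1.S did not pass without uninjected replicate 1 or without chordin replicate 2 (adjusted p up to 0.0614). Bambi.L did not pass without uninjected replicate 1, uninjected replicate 2 or chordin replicate 1 (adjusted p up to 0.186). Szl.S and aldh1a1.S did not pass in any of the 4 fits with 1 array left out (adjusted p up to 0.219). Under spike-in scaling szl.S and bambi.L did not pass (adjusted p up to 0.156).

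Transcription factor families also changed. Of 113 homeobox genes outside the Hox clusters 30 rose and 11 fell (median 0.37, or 0.78 with 34 higher and 7 lower under spike-in scaling), and the rises were led by copies of rax, vsx1, hesx1, six6 and pax6, the eye and forebrain markers. The largest called fall was that of hhex.L, a homeobox gene of anterior endoderm and endothelium, with 256 and 285 in uninjected caps and 1.15 and 12.03 with chordin (at least 10.3-fold lower, adjusted p = 0.0122). The POU gene pou2f3.L followed, with 455 and 159.9 in uninjected caps and 9.28 and 7.20 with chordin (at least 10.3-fold lower, adjusted p = 0.0101). Of the Hox genes, which pattern trunk and tail, 0 of 25 were called higher, also at an unadjusted limma p below 0.05, and 2 lower; 0 rose and 2 fell under spike-in scaling too, and 15 of the 25 lay at or below background on all 4 arrays. Hoxa11.S gave 69.8 and 87.6 in uninjected caps and 1.40 and 1.84 with chordin (at least 3.11-fold lower, adjusted p = 0.00491). The other call, hoxa2.L, lay at or below background on all 4 arrays.

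Of 54 forkhead and Sox genes 16 rose and 5 fell (median -0.03, but 0.46 with 17 higher and 4 lower under spike-in scaling), and of 60 zinc-finger and pluripotency genes 15 rose and 3 fell, or 5 with the replicate block (median 0.47, or 1.09 with 25 higher and 3 lower under spike-in scaling). Pou5f3.1.L, a relative of mammalian Oct4 that is active in uncommitted cells of the blastula, gave 7492 and 5086 in uninjected caps and 587 and 316 with chordin (log2 change -3.82 ± 0.39, adjusted p = 0.00153). Genes of neuronal differentiation and the synapse rose in 13 and fell in 6 of 104 cases (median 0.05, or 0.57 with 18 higher and 2 lower under spike-in scaling), against 14.9% rises over all named genes. When uninjected 1, uninjected 2, chordin 1 or chordin 2 was left out, in that order 25, 25, 22 and 25 homeobox, 14, 13, 13 and 13 forkhead and Sox, 10, 13, 9 and 12 zinc-finger and 9, 8, 11 and 9 neuronal genes rose. Hoxa11.S and pou5f3.1.L passed with any 1 array left out. Pou2f3.L did not pass without uninjected replicate 1 or without chordin replicate 1 (adjusted p up to 0.0702). Hhex.L did not pass without uninjected replicate 1, uninjected replicate 2 or chordin replicate 1 (adjusted p up to 0.0726).

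Transport, traffic and metabolism were mixed, against 14.9% rises and 10.1% falls over all named genes. Of 200 solute carriers 34 fell and 22 rose (median -0.25, but 0.34 with 24 higher and 10 lower under spike-in scaling). The amino acid transporter slc38a2.L gave 4106 and 1401 in uninjected caps and 202 and 152 with chordin (log2 change -3.74 ± 0.52, adjusted p = 0.00412). Glucose transporters went both ways. Slc2a12.L gave 858 and 746 in uninjected caps and 44.3 and 82.7 with chordin (log2 change -3.61 ± 0.55, adjusted p = 0.00527), and slc2a2.L, known as GLUT2, gave 8474 and 8756 in uninjected caps and 3206 and 2987 with chordin (log2 change -1.48 ± 0.15, adjusted p = 0.00152). Slc2a1.L, known as GLUT1, gave 212 and 323 in uninjected caps and 3407 and 5774 with chordin (log2 change 4.06 ± 0.42, adjusted p = 0.00152). Its chordin arrays were the highest of the 4 by a wide margin. The lysosomal transporter slc66a1.L fell to background (at least 3.33-fold lower, adjusted p = 0.00984).

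Glycolysis and citric acid cycle genes rose in 6 (9.8%) and fell in 8 (13.1%) of 61 cases, against 14.9% and 10.1% of all named genes. There were 14 falls with the replicate block (median -0.21, but 0.42 with 7 higher and 0 lower under spike-in scaling). Hexokinase 2, hk2.L, gave 5311 and 4480.4 in uninjected caps and 154 and 315 with chordin (log2 change -4.43 ± 1.07, adjusted p = 0.0241; adjusted p = 0.0517 with the replicate block). The phosphofructokinase pfkp.L (log2 change -1.97 ± 0.54, adjusted p = 0.0352) and the lactate dehydrogenase ldhb.S (log2 change -1.51 ± 0.21, adjusted p = 0.00383) fell by less.

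Of 233 Rab and membrane traffic genes 46 fell (19.7%) and 19 rose (8.2%), or 32 rose with the replicate block (median -0.29, but 0.39 with 34 higher and 3 lower under spike-in scaling). Rab36.L gave 838 and 851 in uninjected caps and 41.9 and 61.5 with chordin (log2 change -3.92 ± 0.47, adjusted p = 0.00241). Rab25.L, a GTPase of apical recycling in epithelia, gave 2141 and 3041 in uninjected caps and 286 and 730.4 with chordin (log2 change -2.47 ± 0.71, adjusted p = 0.0421; adjusted p = 0.0651 with the replicate block). Rab27b.S, which serves secretory granules, and rab7b.L fell (log2 change -2.18 ± 0.43, adjusted p = 0.0121, and log2 change -2.44 ± 0.45, adjusted p = 0.00942), and the sorting nexin snx7.S rose (log2 change 2.24 ± 0.38, adjusted p = 0.00751). Among 121 genes of planar polarity and cell shape 24 fell (19.8%) and 17 rose (14.0%), with a median of -0.27, but 0.28 with 25 higher and 4 lower under spike-in scaling. Dishevelled 3, dvl3.L, gave 1841 and 1594 in uninjected caps and 154 and 232 with chordin (log2 change -3.14 ± 0.35, adjusted p = 0.00176). Prickle3.L, of planar polarity, fell (log2 change -2.83 ± 0.38, adjusted p = 0.00335), as did arhgap8.L (log2 change -2.68 ± 0.67, adjusted p = 0.0274; adjusted p = 0.0556 with the replicate block).

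Proteasome and ubiquitin genes rose in 38 (22.8%) and fell in 11 (6.6%) of 167 cases, against 14.9% and 10.1% of all named genes (median 0.24, or 0.93 with 54 higher and 2 lower under spike-in scaling). The deubiquitinase usp44.L gave 139.7 and 113 in uninjected caps and 828 and 719.5 with chordin (log2 change 2.57 ± 0.28, adjusted p = 0.00164). Psmc3ip.L, a recombination factor that the list's name pattern takes in, usp1.S and fbxw8.L rose by less (log2 change 1.45 ± 0.28, adjusted p = 0.0114, log2 change 1.15 ± 0.17, adjusted p = 0.00428, and log2 change 1.14 ± 0.28, adjusted p = 0.0234). Fbxo43.L, an inhibitor of the anaphase-promoting complex, gave 795 and 1189.7 in uninjected caps and 46.9 and 117 with chordin (log2 change -3.62 ± 0.60, adjusted p = 0.00695). With uninjected 1, uninjected 2, chordin 1 or chordin 2 left out, in that order 12, 12, 13 and 9 rose and 10, 14, 8 and 19 fell among solute carriers, 10, 15, 10 and 23 traffic genes fell, 11, 12, 11 and 11 rose and 11, 11, 8 and 17 fell among polarity genes, 5, 5, 5 and 5 rose and 2, 2, 2 and 4 fell among glycolysis genes, and 20, 15, 10 and 20 ubiquitin genes rose. Slc38a2.L, slc2a12.L, slc2a1.L, rab36.L, snx7.S, dvl3.L, prickle3.L, ldhb.S, slc2a2.L, usp44.L, usp1.S and fbxo43.L passed with any 1 array left out. Slc66a1.L did not pass without uninjected replicate 1 (adjusted p up to 0.0897). Rab7b.L and rab27b.S did not pass without uninjected replicate 1 or without chordin replicate 1 (adjusted p up to 0.0735). Psmc3ip.L and fbxw8.L did not pass without uninjected replicate 1, chordin replicate 1 or chordin replicate 2 (adjusted p up to 0.121). Pfkp.L did not pass without uninjected replicate 1, uninjected replicate 2 or chordin replicate 1 (adjusted p up to 0.14). Rab25.L, arhgap8.L and hk2.L did not pass in any of the 4 fits with 1 array left out (adjusted p up to 0.211). Under spike-in scaling rab25.L, arhgap8.L, hk2.L, pfkp.L, ldhb.S and slc2a2.L did not pass (adjusted p up to 0.141).

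Against this background some of the most abundant messages stayed within narrow bounds. For the 6 brightest genes whose 95% interval lay within 0.5 of 0 on the log2 scale, the limit is a statement about the deposited scaling, since the spike-in scaling gave each a log2 change between 0.47 and 0.70. Ornithine decarboxylase, odc1.L, gave 36431 and 32414 in uninjected caps and 35998 and 33047 with chordin (log2 change 0.01, 95% interval -0.27 to 0.28). The nucleosome-binding protein hmgn1.S gave 28506 and 25094 in uninjected caps and 28312 and 24119 with chordin (log2 change -0.03, 95% interval -0.36 to 0.29). The chaperone hspa1l.S gave 26119 and 23462 in uninjected caps and 25439.7 and 23289.9 with chordin (log2 change -0.02, 95% interval -0.30 to 0.26). The groups overlapped in all of these. Ccdc50.L and hmgb2.L, a chromatin architectural protein, behaved alike (log2 change -0.12, 95% interval -0.44 to 0.20, and log2 change -0.07, 95% interval -0.36 to 0.21). The mitochondrial carrier slc25a5.L gave 30237 and 26322 in uninjected caps and 24684 and 23631 with chordin (log2 change -0.22, 95% interval -0.46 to 0.01), and it alone passed with the replicate block (adjusted p = 0.0222).

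In other genes the 2 chordin arrays differed widely. Among genes with close uninjected arrays, val.L gave 14615 and 11483 in uninjected caps and 14.5 and 1502 with chordin (log2 change -6.23 ± 2.92, adjusted p = 0.152). The proton pump subunit atp6v1g3.L gave 5561 and 5758 in uninjected caps and 36.5 and 574 with chordin (log2 change -5.19 ± 2.27, adjusted p = 0.13). The keratin krt19.L gave 13438 and 11392 in uninjected caps and 267 and 3165 with chordin (adjusted p = 0.0769, or 0.049 with the replicate block and 0.0421 without chordin replicate 2). Both chordin arrays lay below both uninjected arrays in each, as for 3453 of the 11303 named genes, and chordin replicate 1 was far below replicate 2. The chemokine cxcl8.L gave 269.5 and 357 in uninjected caps and 30.1 and 488 with chordin, with chordin arrays on either side of the uninjected ones (adjusted p = 0.405, but 0.0048 without chordin replicate 2). Cldn1.S and mmp3.L, described above, completed this set of 6.

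Xenopus laevis is an allotetraploid, and many genes persist as 2 copies, or homeologs, on the long and short subgenomes, marked .L and .S. Of 2009 pairs with a probe set for each copy, 1503 passed the filter in both. In 163 pairs both copies rose, in 86 both fell, in 465 only a single copy was called, in 776 neither was, and in 13 the copies were called in opposite directions. Across the 1503 pairs the changes of the copies correlated at r = 0.735, as a description over genes that share the arrays, and the median absolute difference was 0.40. Closely related copies can cross-hybridise, and the probe sets of krt19.L, krt19.S and rbm24.L below are of the kinds whose design allows probes shared with other transcripts. For comparison, probe sets of the same symbol were called in opposite directions for 12 of 405 symbols with 2 or more called probe sets (2.96%), against 13 of 262 pairs with both copies called (4.96%).

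The difference between the copies was itself tested in the fit. It was called for 181 of the 1503 pairs (12%), in 90 of which the .L copy had the higher change. With the replicate block 302 pairs were called, and without uninjected replicate 1, uninjected replicate 2, chordin replicate 1 and chordin replicate 2 the counts were 25, 21, 30 and 58. The differences with the widest gap included the keratin krt19, for which krt19.L gave 13438 and 11392 in uninjected caps and 267 and 3165 with chordin, and krt19.S gave 2275 and 1914 in uninjected caps and 9015 and 8857 with chordin (difference of log2 change, .L minus .S, -5.83 ± 1.08, adjusted p = 0.0253). The .L copy was bright in uninjected caps and the .S copy bright with chordin. For twsg2, a twisted gastrulation relative, the .L copy gave 3.95 and 12.3 in uninjected caps and 37.7 and 108 with chordin. Its .S copy gave 122 and 244 in uninjected caps and 24.7 and 53.6 with chordin (difference of log2 change, .L minus .S, 4.54 ± 0.28, adjusted p = 0.00178). These signals are near background in part.

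For slc3a2, the heavy chain of amino acid transporters, the .L copy gave 149 and 148 in uninjected caps and 381 and 1069 with chordin. The .S copy gave 7313 and 5197 in uninjected caps and 1281 and 1701 with chordin (difference of log2 change, .L minus .S, 4.13 ± 0.77, adjusted p = 0.0259). The RNA-binding gene rbm24 gave 267 and 277 in uninjected caps and 89.8 and 59.3 with chordin for .L. Its .S copy gave 27.7 and 50.3 in uninjected caps and 183 and 177 with chordin (difference of log2 change, .L minus .S, -3.94 ± 0.54, adjusted p = 0.0125), and its .L change alone was not called. For sh3glb2 the .L copy gave 299.8 and 348 in uninjected caps and 70.3 and 139 with chordin, and the .S copy 62.4 and 65.3 in uninjected caps and 336 and 304 with chordin (difference of log2 change, .L minus .S, -3.88 ± 0.38, adjusted p = 0.00626). The abundant marcksl1.S that rose, given above, has a copy that fell: marcksl1.L gave 2491 and 3616 in uninjected caps and 851 and 897 with chordin (difference of log2 change, .L minus .S, -3.63 ± 0.26, adjusted p = 0.00205). The other pairs called in opposite directions were cd82, cmtm7, dhdds, f2rl1, fuca1, hsd17b12, oaf, rtn4 and tmem53, and the difference was called in all 13. The 5 probe sets of dhdds.S did not agree, with log2 changes from 0.84 to -0.93. The brightest, used here, alone was called, so the direction of dhdds.S depends on the probe set.

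**Figure D5:**
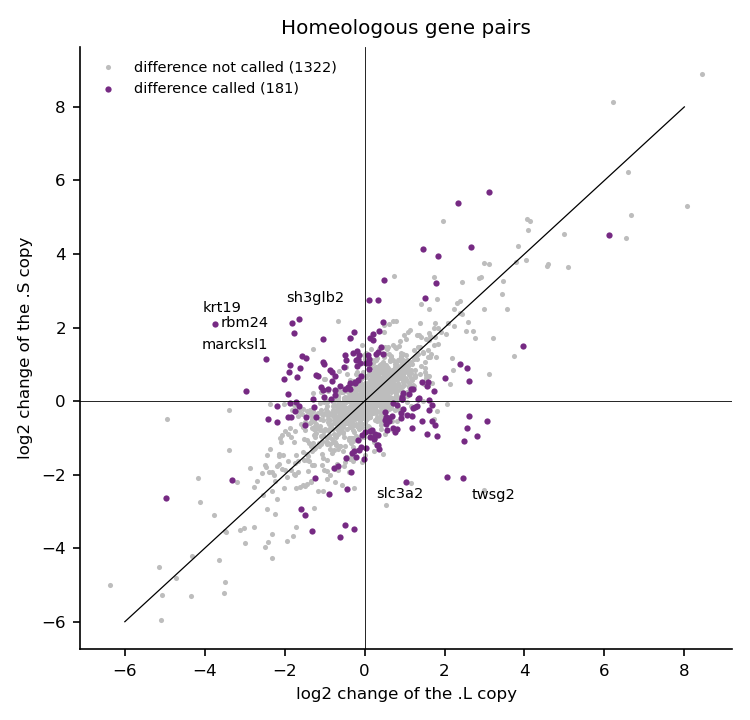
Log2 change with chordin of the .S copy against that of the .L copy for 1503 homeologous pairs, with the 181 pairs whose difference was called in purple and equal changes on the line. Most pairs lie near the line, and the labelled pairs lie in the quadrants of opposite sign.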

How the data were processed

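Caps were measured on 8 Affymetrix arrays, 2 in each of 4 groups. Per the submitters' processing notes the MAS5 algorithm was used, and the authors deposited linear signal intensity values. Every deposited array has a 2% trimmed mean of 500, and no further normalization was applied. The 96 manufacturer controls entered no test. The deposited intensities were transformed here to log2(signal + 5.22), the 10th percentile of all signals being the pseudocount, and 22000 of 32539 probe sets above the 40th percentile of their array on at least 2 arrays were kept. Limma 3.58.1 in R 4.3.3 (lmFit, eBayes with trend and robust) fitted the 4 group means to all 8 arrays, with 4 residual degrees of freedom, and calls were made at a Benjamini-Hochberg adjusted p below 0.05. With 2 arrays a group an exact permutation test cannot go below p = 0.333. The number of arrays limits the precision, and the median standard error was 0.29.

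Background was the highest of 23 negative control probe sets on each array (19.5 to 30.8 over the 8 arrays). The platform annotation gave 1 symbol to 15495 probe sets, several to 279 and none to 16765, and 15384 matched the RefSeq gene table by Entrez identifier. A gene is its brightest probe set. Whether replicates came from separate embryo batches is not stated in the labels, and the p-values then reflect spread between these samples alone, which may be technical. Deviations of arrays sharing a replicate number had r of 0.172 to 0.505 over the 6 group pairs, so the numbers were taken to pair the arrays in the replicate block alone. The main fit left this pairing out, and its calls, standard errors and p-values are those of unpaired groups. The gapdh 3' to 5' ratio was 1.41 and 1.28 on replicate 1 and 1.63 and 1.61 on replicate 2 of uninjected and chordin caps.

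The genes and lists were chosen with earlier results of these data known. Genes were named by rule. The first were the 12 largest rises and falls outside the known markers, among called genes whose groups did not overlap. Next came the 8 largest of each among called genes in the brightest 10%, and up to 4 called members in the main direction and 1 in the other of each list. The rest were the 6 brightest genes with a 95% interval within 0.5 of 0, the 6 with the widest gap between chordin arrays, and the 5 homeolog pairs with the widest called difference. The marker genes, boc.L, copies of hesx1 and the pairs beyond those 5 were named after their values were seen. The 15 alternatives were other pseudocounts, filters, scalings, variance models and call rules, the replicate block, and each array left out.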

Additional observations from a re-analysis of the deposited data

How the results depend on the processing

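Against 6445 calls (3866 higher, 2579 lower) in the main setting, the test for a change beyond 2-fold gave 809 (591 higher, 218 lower). With 1 array left out there were 2298 to 3545 calls (1619 to 2129 higher, 679 to 1429 lower), from fits with fewer samples in which the lone array of a group is assumed to vary like the others. Spike-in scaling gave 5772 higher and 725 lower. The other settings gave 5855 to 8922 calls, the last with the replicate block (5350 higher, 3572 lower), in which 6352 of the calls remained. Homeolog differences numbered 181, against 302 with the replicate block, 67 with only the 4 arrays of both groups in the fit, 8 beyond 2-fold and 21 to 58 with 1 array left out. Of 222 named genes, the replicate block lost the calls of 8 and gained 2, spike-in scaling lost 40, most of them falls named in the text, and the test beyond 2-fold lost 107, and leaving out 1 array lost 48 to 80. Apart from the calls and counts given with it in the text, the replicate block changed no other named call.

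Genes near 0 changed sign without a call. Under quantile normalization the log2 change was 0.086 for ccdc50.L, 0.15 for hmgn1.S, 0.12 for hmgb2.L and 0.16 for hspa1l.S, and under spike-in scaling 0.57, 0.66, 0.62 and 0.67 for these and 0.47 for slc25a5.L. With 1 array left out it ranged from -0.079 to 0.090 for odc1.L, -0.26 to 0.015 for ccdc50.L, -0.15 to 0.082 for hmgn1.S, -0.18 to 0.031 for hmgb2.L and -0.10 to 0.053 for hspa1l.S. Cxcl8.L, which was not near 0 in the main fit (log2 change -1.26), ranged from -3.16 to 0.64. The cause was not tested for these.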

Other observations

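In the gene groups below, the shares of members called were near or under those of all named genes (14.9% higher, 10.1% lower). Among G-protein-coupled receptors and their ligands 13 of 126 rose and 13 fell (median log2 change -0.08, but 0.44 with 18 higher and 5 lower under spike-in scaling). The orphan receptor gprc5b.L gave 51.3 and 28.1 in uninjected caps and 727 and 933 with chordin (log2 change 4.25 ± 0.60, adjusted p = 0.0042). The scavenging chemokine receptor ackr3.L gave 41.3 and 26.96 in uninjected caps and 599.7 and 468 with chordin (log2 change 3.79 ± 0.36, adjusted p = 0.00117), while cxcl12.L, the chemokine it binds, gave 379 and 592 in uninjected caps and 21.8 and 99.4 with chordin (log2 change -3.17 ± 0.78, adjusted p = 0.0254). The receptor was high and its ligand low with chordin, with no overlap of the groups. The peptide ligand apln.L gave 99.3 and 173 in uninjected caps and 2.96 and 6.23 with chordin (at least 5.08-fold lower, adjusted p = 0.00232). The nucleotide receptor p2ry4.L (log2 change 3.09 ± 0.22, adjusted p = 0.000534) and the regulator rgs14.L (at least 2.97-fold higher, adjusted p = 0.023) rose.

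Among complement, immune and lectin genes 5 of 82 rose and 6 fell (median log2 change -0.17, but 0.35 with 8 higher and 0 lower under spike-in scaling), and the name pattern also takes c4orf47.L. The flagellin receptor tlr5.L (log2 change 3.84 ± 0.67, adjusted p = 0.00851, 1 of 2 uninjected arrays at background), complement factors cfb.L (log2 change 2.47 ± 0.31, adjusted p = 0.00268) and cfp.L (log2 change 1.99 ± 0.40, adjusted p = 0.0133) and the cytokine il1b.S (at least 3.66-fold higher, adjusted p = 0.0253) rose. In the p53 and apoptosis list 7 of 60 rose and 6 fell (median log2 change -0.14, but 0.52 with 13 higher and 0 lower under spike-in scaling), or 12 and 10 with the replicate block. The stress-inducible sesn1.L gave 67.04 and 68.8 in uninjected caps and 663 and 512 with chordin (log2 change 3.01 ± 0.26, adjusted p = 0.000915), phlda1.L rose (log2 change 2.23 ± 0.33, adjusted p = 0.0049, 1 of 2 uninjected arrays at background), and the oxidoreductase tp53i3.S fell (log2 change -1.83 ± 0.31, adjusted p = 0.00687). Among chaperone and stress genes 13 of 155 rose and 16 fell (median log2 change 0.00, or 0.62 with 25 higher and 3 lower under spike-in scaling), or 22 rises with the replicate block. Gadd45g.L, a growth arrest gene, gave 2274 and 2363 in uninjected caps and 191 and 274 with chordin (log2 change -3.31 ± 0.50, adjusted p = 0.00544). The glutathione peroxidase gpx3.S gave 0.978 and 1.38 in uninjected caps and 115 and 323 with chordin (at least 6.49-fold higher, adjusted p = 0.00466), and the quinone reductase nqo1.L fell (log2 change -2.64 ± 0.77, adjusted p = 0.0437; adjusted p = 0.0615 with the replicate block). With uninjected 1, uninjected 2, chordin 1 or chordin 2 left out, in that order 8, 4, 5 and 8 rose and 3, 3, 4 and 11 fell among receptor and ligand genes, 2, 2, 3 and 2 rose and 1, 1, 1 and 4 fell among immune genes, 3, 4, 4 and 5 rose and 3, 3, 3 and 5 fell among p53 and apoptosis genes and 9, 9, 6 and 8 rose and 7, 6, 6 and 7 fell among chaperone and stress genes. Gprc5b.L, ackr3.L, p2ry4.L, apln.L, cfb.L, gadd45g.L, gpx3.S, sesn1.L, phlda1.L and tp53i3.S passed with any 1 array left out. Tlr5.L did not pass without uninjected replicate 1 (adjusted p up to 0.0517). Cxcl12.L did not pass without uninjected replicate 1, uninjected replicate 2 or chordin replicate 1 (adjusted p up to 0.122). Rgs14.L and il1b.S did not pass without uninjected replicate 1, uninjected replicate 2 or chordin replicate 2 (adjusted p up to 0.12). Cfp.L and nqo1.L did not pass in any of the 4 fits with 1 array left out (adjusted p up to 0.189). Under spike-in scaling cxcl12.L, nqo1.L and tp53i3.S did not pass (adjusted p up to 0.112).

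Of ion channels 6 of 83 rose and 6 fell (median log2 change 0.01, or 0.39 with 6 higher and 1 lower under spike-in scaling). Among genes of sterol synthesis and lipid uptake 3 of 54 rose and 2 fell (median log2 change -0.06, but 0.50 with 6 higher and 1 lower under spike-in scaling), or 5 and 7 with the replicate block. Among histones 0 of 15 rose, also at an unadjusted limma p below 0.05, and 1 fell, or 1 rise with the replicate block. In the lysosome, cathepsin and serpin list 2 of 53 rose and 0 fell (median log2 change -0.12, but 0.46 with 6 higher and 0 lower under spike-in scaling), or 2 falls at an unadjusted limma p below 0.05 and 4 rises and 2 falls with the replicate block.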
